A study of Mus musculus with 6 samples.

Results

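Immediate early and stress genes are the genes that cells switch on first after growth factors, cytokines, heat, dissociation or sorting. A list of 39 such genes was followed in small intestinal stem cells treated with interferon gamma (IFNg), and all 39 were found by symbol among the 23127 genes in the table. The list covers AP-1 factors, zinc finger and orphan nuclear receptor factors, feedback phosphatases, mRNA decay and BTG proteins, Gadd45 and immediate early response (Ier) genes, matrix genes, Rhob and 2 inducible heat shock genes. The minimum for testing, a mean of 10 scaled counts over the 6 libraries, was met by 38 of the 39 genes and by 16095 genes in all. The gene below it was Dusp2, a nuclear MAP kinase phosphatase, with 0 to 4.21 scaled counts. A scaled count is a read count divided by a size factor, a number that brings the libraries to a common depth.

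The cells were sorted for high Lgr5-GFP from small intestine of Lgr5-GFP mice, labelled C57BL/6. GFP in these mice reports the stem cell gene Lgr5. The labels give neither the age of the mice nor whether each library came from its own mouse, so p-values measure the spread between these libraries, which may be technical. One group of 3 libraries was incubated in ENR, a medium with EGF, Noggin and R-spondin1, with IFNg at 1 ng/ml for 1.5 h. The other 3 libraries are labelled as not treated, and their titles carry the same 1.5. Whether the untreated cells also stood in the medium for that time is not stated, so IFNg and incubation cannot be told apart for genes that respond to handling. The titles also carry a tag, GFP1 for untreated replicate 5 and IFNg replicate 6 and GFP3 for untreated replicates 1 and 9 and IFNg replicates 2 and 10. What the tag stands for is not given, and it is used here only as a name. Each library started from 2 ng of RNA.

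By background, immediate early genes need no new protein for their induction. Growth factor signals through ERK and stress signals through p38 and JNK act on transcription factors that the cell already holds. These include serum response factor at CArG boxes, CREB and ATF proteins at cAMP response elements, and heat shock factor at heat shock elements. Their products include the AP-1 and Egr factors, which start later genes, and also brakes such as the Dusp phosphatases and the mRNA decay factor Zfp36. In freshly dissociated intestine these genes are widely known as marks of tissue handling, and EGF and MAP kinase signalling also act on intestinal stem cells in the tissue.

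The sequences shown here are the 30-base windows around regulatory motifs upstream of genes whose values the results turn on, with the motif in capitals (CRE, cAMP response element). They were read 5′ to 3′ on the strand of the gene, from the RefSeq windows of GRCm38.p6 that hold 250 bases before each gene's start. Windows were matched for 31 of the 38 tested genes. Fosl1, Egr1, Egr3, Klf10, Myc, Ier2 and Ctgf had no window and were not searched. The windows printed for Dusp1, Zfp36, Csrnp1, Egr2 and Maff lie inside a GENCODE gene that begins farther upstream than the RefSeq start.
Dusp1, CRE, chr17:26508597-26508626, − strand: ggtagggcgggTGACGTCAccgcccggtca
Dusp5, CArG box, chr19:53529053-53529082, + strand: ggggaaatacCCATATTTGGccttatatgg
Dusp5, CArG box, chr19:53529063-53529092, + strand: ccatatttggCCTTATATGGgcactcacgt
Zfp36, CArG box, chr7:28379267-28379296, − strand: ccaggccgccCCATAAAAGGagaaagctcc
Csrnp1, AP-1 site, chr9:119983107-119983136, − strand: gcgaggcttggTGAGTCAcggaccccggga
Csrnp1, AP-1 site, chr9:119983024-119983053, − strand: tcagaggccactgccgTGAGTCAccggggc
Egr2, CArG box, chr10:67537484-67537513, + strand: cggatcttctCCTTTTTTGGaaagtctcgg
Egr2, CArG box, chr10:67537787-67537816, + strand: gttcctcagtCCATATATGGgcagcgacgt
Jun, heat shock element, chr4:95052332-95052361, − strand: ggcccagagaaGAATCTTCtagggtgaggt
Maff, CRE, chr15:79347480-79347509, + strand: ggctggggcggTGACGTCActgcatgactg
Btg2, CRE, chr1:134079303-134079332, − strand: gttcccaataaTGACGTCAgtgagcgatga
Hspa1b, heat shock element, chr17:34959324-34959353, − strand: cgaaactgctgGAAGATTCctggccccaag
Hspa1a, heat shock element, chr17:34972242-34972271, − strand: cgaaactgctgGAAGATTCctggccccaag

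The cAMP response element, searched as TGACGTCA, lay upstream of 3 of the 31 genes (Btg2, Dusp1 and Maff) and of 1.77% of all genes with a window. CArG boxes, the sites of serum response factor, lay upstream of 3 of 31 (Dusp5, Egr2 and Zfp36) and of 1.62% of all. Dusp5 carries a pair of them side by side, and those shown for Egr2 belong to separate annotated starts. The AP-1 site TGACTCA, which reads TGAGTCA on the other strand, lay upstream of 1 of 31 (Csrnp1, at 2 places) and of 5.16% of all. The heat shock element GAANNTTC lay upstream of 4 of 31 (Fosl2, Hspa1a, Hspa1b and Jun) and of 7.73% of all. Both strands were searched and none of these matches overlapped another. A match is a description of the letters and not of binding.

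Libraries held 28508762 to 40224497 reads in genes, and 1 read equalled 0.853 to 1.05 scaled counts. A gene listed at 0 could therefore have a level of up to 2.56 to 3.16 (3 reads, counting error only). IFNg target genes checked the labels: Irf1, an interferon response factor, had 1718, 1726 and 1876 scaled counts untreated and 55019, 66943 and 56965 with IFNg. Stem cell markers (6 genes with Lgr5 and Olfm4 among them) summed to 259418 to 295978 scaled counts untreated and 272931 to 275839 with IFNg. Most of each sum was Olfm4, with 219689 to 266604 untreated and 225396 to 240556 with IFNg, so the sums say little of the others. The mean was 1.92-fold for Ascl2 and 2.20-fold for Smoc2, and lower with IFNg for the other 4, with Lgr5 at 0.750-fold. Sums over 6 Paneth cell markers were 100872 to 353962 untreated and 23277 to 198547 with IFNg. Those over 6 goblet cell markers were 64466 to 249470 untreated and 75282 to 154406 with IFNg. Sums in either group were 277 to 419 over 6 leukocyte markers and 31.6 to 257 over 7 stromal and endothelial markers. The part of all these markers in the results was not tested. The mean with IFNg was higher for 0 of the 6 Paneth, 0 of the 6 goblet, 1 of the 7 stromal and endothelial, 2 of the 6 stem cell and 4 of the 6 leukocyte markers. By limma (unadjusted p below 0.05 included), edgeR and DESeq2, 0 of the Paneth and goblet markers were called for IFNg. Of the 6 stem cell markers, 0 passed limma, edgeR or DESeq2. For 2 of them the unadjusted limma p was below 0.05 (8.46% of all genes higher and 0.758% lower). Of the defining markers, none was at 0 in every library. Mitochondrial genes took 6.81% and 6.21% of gene reads in the GFP1 libraries and 1.35% to 4.07% in the GFP3 libraries. In bulk RNA, more cells with a transcript and more of it per cell cannot be told apart.

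No gene of the list passed the main test for IFNg. With limma on log2(scaled count + 1) and Benjamini-Hochberg adjustment, 0 of 38 were higher and 0 lower at an adjusted p below 0.05, where 0.416% of all 16095 tested genes were called higher and 0.0124% lower. edgeR's quasi-likelihood test also called 0 of 38 higher (0.373% of all genes). At an unadjusted limma p below 0.05, 13 of 38 were higher (34.2%, against 8.46% of all genes) and 0 lower (0.758% of all). With DESeq2, 8 of 38 were higher (21.1%, against 2.84% of all genes): Jun, Jund, Egr1, Csrnp1, Dusp1, Dusp5, Zfp36 and Btg1. DESeq2 called 0 of 38 lower (0.0497% of all). Those DESeq2 calls depended on the libraries. They numbered 1 without untreated replicate 1 (1.07% of all genes), 3 without untreated replicate 9 (0.975%), 4 without IFNg replicate 2 (197 of all genes) and 1 without IFNg replicate 10 (0.795%). They numbered 13 without untreated replicate 5 (8.56%) and 12 without IFNg replicate 6 (7.21%). Egr1 was called by DESeq2 in each of these 6 fits.

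Described without a test, the values of the 38 genes lay above those of untreated cells more often than below. Their median log2 difference was 0.45, and that of all tested genes was -0.08. The fitted difference was above 0 for 29 of the 38 (76.3%, against 42.9% of all genes) and below 0 for 9. Under TMM scaling these were 28 and 10, and the median of all genes was -0.12. All 3 IFNg libraries exceeded all 3 untreated libraries for 11 of 38 genes (28.9%, against 8.13% of all genes): Jun, Junb, Jund, Egr1, Nr4a2, Csrnp1, Dusp1, Dusp5, Dusp6, Zfp36 and Btg1. All 3 IFNg libraries lay below for 1 of 38, Zfp36l1 (5.06% of all genes).

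**Figure D1:**
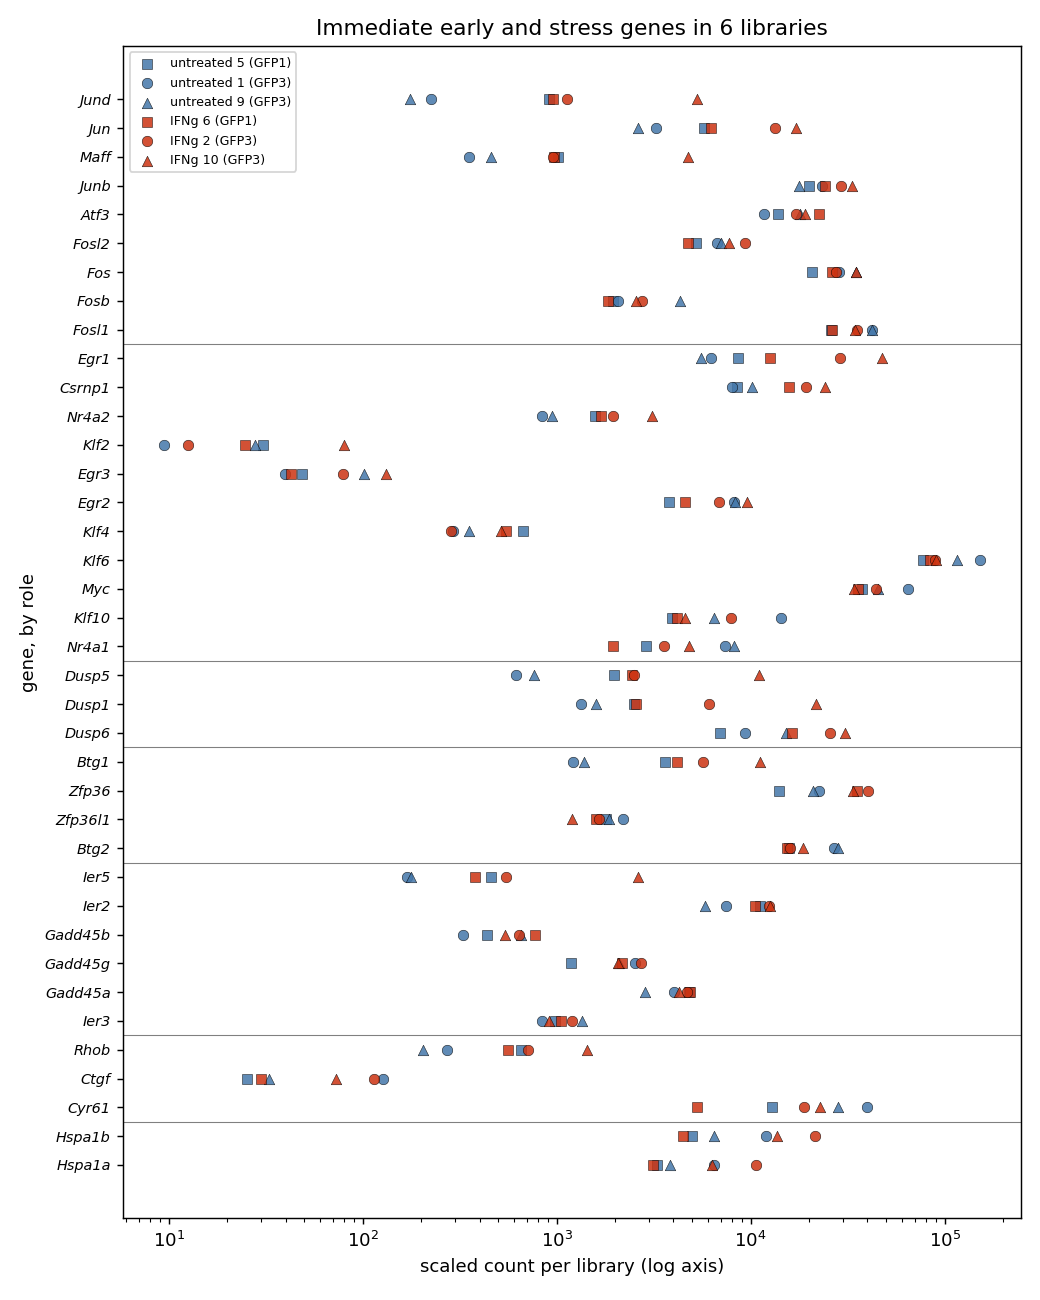
Scaled counts of the 38 tested genes in each library, on a log axis, with genes in rows grouped by role and 1 point per library (colour for group and shape for pair). Egr1 and Csrnp1 show 3 IFNg points to the right of all untreated points, whereas the points of Fos and Fosl1 are mixed.

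Among the AP-1 factors, Jun, Junb and Jund had higher values in every IFNg library than in any untreated library, while Fos and Fosl1 did not. AP-1 is a dimer of a Jun protein with a Fos, Atf or Maf type protein. Jun, which gave the family its name (chr4:95049034-95052222, − strand, GRCm38), had 5734, 3259.7 and 2641 scaled counts in untreated replicates 5, 1 and 9 and 6223, 13276 and 17139 in IFNg replicates 6, 2 and 10. The groups did not overlap, and the GFP1 libraries, untreated 5 and IFNg 6, were the closest to each other. Its mean went from 3878 ± 1637 to 12213 ± 5535 (SD, n = 3 each), 3.15-fold, with a log2 difference of 1.61 ± 0.43 (SE). Its adjusted p was 0.294 by limma and 0.0195 by DESeq2, and ran from 0.000115 to 0.946 over 24 alternative fits. Jun shares 232 exon bases with Junos on the opposite strand, and their reads cannot be told apart without strand.

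Jund, a Jun protein that resting cells also hold (chr8:70698949-70700616, + strand), had 908, 225 and 176 scaled counts untreated and 954, 1135 and 5279 with IFNg. IFNg replicate 10 stood far above the others, and untreated replicate 5 lay just under IFNg replicate 6. The mean went from 436 ± 409 to 2456 ± 2447 (SD, n = 3 each), 5.63-fold, and the fold was 2.39 without IFNg replicate 10 and 12.3 without untreated replicate 5. The log2 difference was 2.43 ± 0.76, with an adjusted p of 0.324 by limma and 0.0384 by DESeq2 (6.65e-06 to 0.959 over the alternatives). Junb, which often opposes Jun (chr8:84974484-84978718, − strand), had 20070.2, 23214 and 17727 scaled counts untreated and 24158, 29157 and 33346 with IFNg. Its groups did not overlap, with a smaller log2 difference of 0.50 ± 0.25 and an adjusted p of 0.638, and the difference was 0.18 after centring by GC content. Junb shares 173 exon bases with Prdx2 on the opposite strand.

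Fos, the classic partner of Jun (chr12:85473890-85477273, + strand), had 20819, 28539.9 and 34882 scaled counts untreated and 26398, 27582 and 34851 with IFNg. These values overlapped throughout, and the highest untreated and the highest IFNg library were nearly equal. The log2 difference was 0.10 ± 0.28 (adjusted p = 0.959), and its sign turned in 3 of the alternative fits. Fosl1, a Fos relative that ERK signalling stabilises (chr19:5447547-5455946, + strand), had 26066, 42245 and 42318 scaled counts untreated and 26116, 35230.1 and 34389 with IFNg. Its log2 difference was -0.19 ± 0.29 (adjusted p = 0.926), and it shares 1163 exon bases with Ccdc85b on the opposite strand. Maff, a small Maf protein without an activation domain (chr15:79346621-79359076, + strand), had 1019.7, 351 and 457 scaled counts untreated and 967, 957 and 4776 with IFNg. Only IFNg replicate 10 lay above all untreated libraries, since untreated replicate 5 exceeded IFNg replicates 6 and 2. Its fold of 3.67 became 1.58 without IFNg replicate 10 and 5.53 without untreated replicate 5, and the adjusted p was 0.472. The other 3 AP-1 genes, Fosb, Fosl2 and Atf3, had log2 differences of -0.14 ± 0.36, 0.16 ± 0.31 and 0.45 ± 0.26. The fold of Fosb was 0.859 and turned to 1.19 without untreated replicate 9, and that of Fosl2 was 1.15 and turned to 0.986 without IFNg replicate 2. Of the 9 AP-1 genes, 7 had a difference above 0 (42.9% of all genes), with a median of 0.45. Of the 9, 0 passed limma or edgeR and 2 passed DESeq2 (2.84% of all genes higher). At an unadjusted limma p below 0.05 there were 3 (8.46% of all genes higher).

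Egr1 was the 1 gene of the list that DESeq2 called whichever library was left out. It encodes a zinc finger factor that ERK signalling induces, and it lies at chr18:34859823-34864984, + strand. It had 8645, 6279 and 5529 scaled counts in untreated replicates 5, 1 and 9 and 12601, 28984 and 47443 in IFNg replicates 6, 2 and 10. Every IFNg library exceeded every untreated library, and the IFNg libraries differed among themselves by several fold. The mean went from 6817 ± 1626 to 29676 ± 17431 (SD, n = 3 each), 4.35-fold, and the fold was 3.05 without IFNg replicate 10. The log2 difference was 1.95 ± 0.45, with an adjusted p of 0.211 by limma and 0.00108 by DESeq2 (6.63e-09 to 0.771 over the alternatives). Without IFNg replicate 6, limma too called Egr1, with an adjusted p of 0.0319, the 1 gene of the list called there (0.454% of all genes higher).

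Csrnp1, a nuclear protein first found as a gene that Axin induces (chr9:119971163-119984658, − strand), had 8501, 8013 and 10127 scaled counts untreated and 15827, 19315 and 24069 with IFNg. The groups did not overlap and each pair showed a similar step, by 1.86-fold, 2.41-fold and 2.38-fold. The mean went from 8880.4 ± 1107 to 19737 ± 4137 (SD, n = 3 each), with a log2 difference of 1.14 ± 0.26 and an adjusted p of 0.202 by limma and 0.00286 by DESeq2 (6.83e-05 to 0.882 over the alternatives). Both AP-1 sites printed above lie within 250 bases before its RefSeq start, which is inside the GENCODE gene of these coordinates.

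Klf6 and Myc, among the most abundant mRNAs of the list, had lower means with IFNg. Klf6, a zinc finger factor of epithelial and wound responses (chr13:5861482-5870394, + strand), had 77378, 151720.0 and 115219 scaled counts untreated and 84084, 89213 and 89809 with IFNg. Untreated replicates 1 and 9 were above all IFNg libraries and untreated replicate 5 below them. Its log2 difference was -0.34 ± 0.30 (adjusted p = 0.88). Myc, which drives growth in the crypt downstream of Wnt (chr15:61985391-61990374, + strand), had 37714, 64518 and 45177 scaled counts untreated and 35620.2, 44292 and 34148 with IFNg, lower with IFNg in each of the 3 pairs, with a log2 difference of -0.34 ± 0.28 (adjusted p = 0.876). Per kilobase of exon and over the 6 libraries, Klf6 had rank 41 of the 16095 tested genes, Fosl1 rank 60 and Myc rank 68. Fos had rank 101, Junb rank 117 and Cyr61 rank 119, so the counts of these genes were high in both groups. The count of Fosl1 may hold reads of Ccdc85b, which lies over 1163 of its 2033 exon bases, and that of Junb reads of Prdx2.

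The orphan nuclear receptors Nr4a1 and Nr4a2, which act without a known ligand, pointed in opposite directions. These genes, and the others described here beyond the 15 that a rule on size and level picked, were chosen after their values were seen. Nr4a2 had 1569, 839.7 and 949 scaled counts untreated and 1689.5, 1956 and 3085 with IFNg, with groups that did not overlap and a log2 difference of 1.01 ± 0.34 (adjusted p = 0.366). Nr4a1 had 2877, 7385 and 8179.5 scaled counts untreated and 1949.6, 3589.5 and 4832 with IFNg, lower with IFNg within each pair, with a log2 difference of -0.79 ± 0.47 (adjusted p = 0.765). When the pair was a term in DESeq2, Nr4a1 was the 1 gene of the list called lower (0.267% of all genes), beside 8 called higher (4.39%). The other zinc finger factors, Egr2, Egr3, Klf2, Klf4 and Klf10, had log2 differences of 0.08 ± 0.39, 0.40 ± 0.54, 0.52 ± 0.77, 0.07 ± 0.41 and -0.42 ± 0.47. The fold of Klf2 was 1.73 and turned to 0.824 without IFNg replicate 10, and that of Klf10 was 0.677 and turned to 1.07 without untreated replicate 1. That of Egr3 was 1.35 and turned to 0.966 without IFNg replicate 10. Egr2 and Klf4, at 1.04-fold and 1.02-fold, also turned, to as low as 0.847 without IFNg replicate 10 and 0.875 without untreated replicate 1. Over the 11 genes of this group, the median was 0.08 and 7 lay above 0 (42.9% of all genes). Of the 11, 0 passed limma or edgeR and 2 passed DESeq2 (2.84% of all genes higher). At an unadjusted limma p below 0.05 there were 3 (8.46% of all genes higher).

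The feedback phosphatases had the highest median of all the roles, 2.00 over 3 tested genes. They remove phosphate from MAP kinases and so end the signal that induces them. Dusp1, which acts on p38, JNK and ERK in the nucleus (chr17:26505590-26562128, − strand), had 2504, 1333 and 1586 scaled counts in untreated replicates 5, 1 and 9 and 2578, 6064 and 21712 in IFNg replicates 6, 2 and 10. IFNg replicate 10 was far above the rest, and untreated replicate 5 and IFNg replicate 6 were almost equal. The mean went from 1808 ± 616 to 10118 ± 10191 (SD, n = 3 each), 5.60-fold, and the fold was 2.39 without IFNg replicate 10. The log2 difference was 2.00 ± 0.66, with an adjusted p of 0.348 by limma and 0.0123 by DESeq2 (5.73e-06 to 0.959 over the alternatives). Its cAMP response element, shown above, lies 143 bases before the RefSeq start, which is inside the GENCODE gene of these coordinates.

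Dusp5, a nuclear phosphatase of ERK (chr19:53529109-53542431, + strand), had 1976, 618 and 762 scaled counts untreated and 2442, 2505 and 10999 with IFNg. As for Dusp1, IFNg replicate 10 was the highest library and the GFP1 pair differed least. Its fold of 4.75 became 2.21 without IFNg replicate 10 and 7.70 without untreated replicate 5. Its log2 difference was 2.06 ± 0.63, with an adjusted p of 0.324 by limma and 0.0298 by DESeq2 (0.000142 to 0.949 over the alternatives). Dusp6, a cytoplasmic ERK phosphatase, had 6937, 9363 and 15204 scaled counts untreated and 16338, 25672 and 30702 with IFNg. It was higher in each pair by over 1 on the log2 scale, with a log2 difference of 1.23 ± 0.36 and an adjusted p of 0.306 by limma and 0.0589 by DESeq2 (5.51e-06 to 0.882 over the alternatives). For all 3 phosphatases the unadjusted limma p was below 0.05 (8.46% of all genes higher), and 0 of the 3 passed limma or edgeR.

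Zfp36, also called tristetraprolin, binds AU-rich elements of cytokine and immediate early mRNAs and starts their decay (chr7:28376784-28380253, − strand). It had 14059, 22551 and 20929 scaled counts untreated and 35202, 40446 and 33696 with IFNg. The groups did not overlap, and in contrast to the Jun and Dusp genes the widest step was in the GFP1 pair, 1.32 on the log2 scale. The mean went from 19179.8 ± 4508 to 36448 ± 3543 (SD, n = 3 each), 1.90-fold, with a log2 difference of 0.95 ± 0.27 and an adjusted p of 0.296 by limma and 0.0284 by DESeq2 (0.00373 to 0.929 over the alternatives). Its relative Zfp36l1 had 1787, 2196 and 1854 scaled counts untreated and 1603, 1658 and 1206 with IFNg, with a log2 difference of -0.39 ± 0.26 (adjusted p = 0.822). Zfp36l1 shares 1672 exon bases with Gm26669 on the opposite strand.

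Btg1, an antiproliferative protein that recruits deadenylase (chr10:96617006-96622809, + strand), had 3618, 1207 and 1382 scaled counts untreated and 4183, 5657 and 11167 with IFNg. The groups did not overlap, and the GFP1 libraries lay close together. Its fold of 3.38 became 5.41 without untreated replicate 5. The log2 difference was 1.82 ± 0.49, with an adjusted p of 0.296 by limma and 0.0369 by DESeq2 (7.58e-06 to 0.946 over the alternatives). Without untreated replicate 5, limma called Btg1 with an adjusted p of 0.0313, again the 1 gene of the list (2.27% of all genes higher). Btg2, its relative, had a log2 difference of -0.47 ± 0.29. Of these 4 genes, 0 passed limma or edgeR and 2 passed DESeq2 (2.84% of all genes higher). At an unadjusted limma p below 0.05 there were 2 (8.46% of all genes higher).

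Ier5, an immediate early regulator of heat shock factor (chr1:155096361-155099636, − strand), had 460.4, 169 and 178 scaled counts untreated and 381, 545 and 2631 with IFNg. IFNg replicate 10 stood out, and untreated replicate 5 exceeded IFNg replicate 6. Its fold of 4.40 became 1.72 without IFNg replicate 10 and 6.82 without untreated replicate 5, with a log2 difference of 1.76 ± 0.70 and an adjusted p of 0.454. The other growth arrest and Ier genes, Ier2, Ier3, Gadd45a, Gadd45b and Gadd45g, had log2 differences of 0.59 ± 0.29, 0.02 ± 0.29, 0.27 ± 0.27, 0.50 ± 0.33 and 0.32 ± 0.33. Gadd45 proteins bind stress kinases and cell cycle proteins. All 6 genes of the group had a difference above 0 (42.9% of all genes), with a median of 0.41. Of the 6, 0 passed limma, edgeR or DESeq2, with 1 at an unadjusted limma p below 0.05 (8.46% of all genes higher).

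Rhob and the matrix genes, which actin and YAP signals induce, had differences of both signs. Rhob, a small GTPase of endosomes, had 653, 271 and 205 scaled counts untreated and 560.3, 713 and 1435 with IFNg, 2.40-fold and 3.79-fold without untreated replicate 5 (log2 difference 1.32 ± 0.50, adjusted p = 0.419). Cyr61, a secreted matrix protein, had 12851, 39702 and 28264 scaled counts untreated and 5315, 18911 and 22684 with IFNg. It was lower with IFNg in each pair, with a log2 difference of -0.89 ± 0.59 (adjusted p = 0.825). Ctgf, a related protein, had 25.3, 126 and 33.0 scaled counts untreated and 29.8, 115 and 72.8 with IFNg, and its fold of 1.18 became 2.49 without untreated replicate 1 and 0.834 without IFNg replicate 2. Ctgf shares 665 exon bases with Gm15270 on the opposite strand. Of the 3 genes, 0 passed limma, edgeR or DESeq2, and 1 had an unadjusted limma p below 0.05 (8.46% of all genes higher).

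Hspa1a and Hspa1b, the inducible Hsp70 chaperones, mark protein damage and heat. Hspa1a had 3279, 6437 and 3855 scaled counts untreated and 3144, 10612 and 6330.4 with IFNg. Hspa1b had 5003, 11940.2 and 6463 scaled counts untreated and 4481, 21510.2 and 13721 with IFNg. In both, the GFP1 libraries were the lowest of their group and IFNg replicate 2 the highest of all. The log2 differences were 0.46 ± 0.45 and 0.59 ± 0.56, with adjusted p of 0.889 and 0.884, and 0 of the 2 had an unadjusted p below 0.05 or passed edgeR or DESeq2. Their transcripts are 99.1% identical over 2200 aligned bases. Reads that did not align uniquely were kept out of the gene counts, so reads that fit both genes equally would be missing from both. Both values may thus be understated, and how the other reads were divided is uncertain. The 30-base windows shown above are the same in both.

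The difference between IFNg and untreated libraries was uneven over the 3 pairs of libraries. Replicates 5 and 6, 1 and 2, and 9 and 10 deviated together from their group means and were taken as pairs. The median log2 difference of the 38 genes reached 0.06 within replicates 5 and 6 (GFP1), 0.53 within 1 and 2, and 0.63 within 9 and 10, and that of all tested genes was 0.01, -0.08 and -0.18. A log2 difference above 1 was found for 2 of 38 genes in the GFP1 pair (Dusp6 and Zfp36, against 7.28% of all genes), 12 in the pair of 1 and 2 (14.2% of all) and 16 in the pair of 9 and 10 (18.0% of all). Values were higher in all 3 pairs for 13 of 38 genes (34.2%, against 15.1% of all genes) and lower in all 3 for 5 of 38 (13.2%, against 22.4%): Nr4a1, Myc, Zfp36l1, Btg2 and Cyr61.

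**Figure D2:**
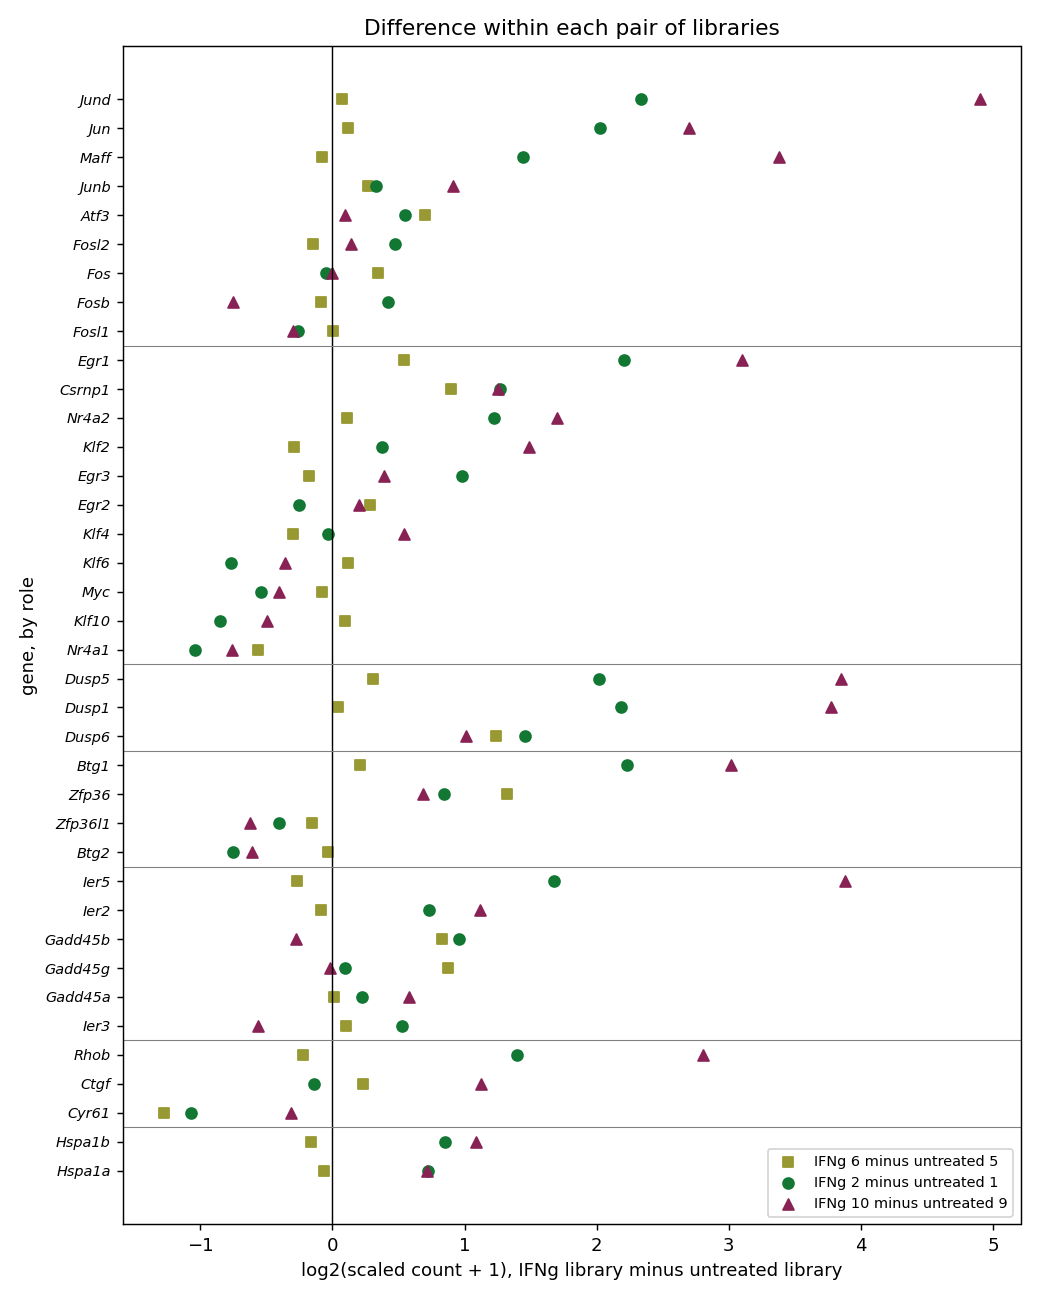
Differences on the log2(scaled count + 1) scale between the IFNg and the untreated library of each pair, for the 38 tested genes in rows grouped by role, with 1 point per pair. For Jund, Jun, Dusp5, Dusp1, Btg1 and Ier5 the GFP1 pair lies near 0 and the other pairs lie to the right, whereas Csrnp1, Dusp6 and Zfp36 have all 3 points right of 0.

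In the test of the difference itself, the interaction of IFNg with tag, limma and edgeR called 0 of 38 genes and 0% of all genes, with 10 of 38 at an unadjusted limma p below 0.05 in the higher direction (10.6% of all genes). DESeq2 called 9 of 38 with a larger IFNg difference in the GFP3 libraries (23.7%, against 4.08% of all genes): Jun, Jund, Maff, Egr1, Dusp1, Dusp5, Btg1, Ier5 and Rhob. Each group holds a single GFP1 library, so this rests on the pair of 5 and 6 and on spread estimated from the GFP3 libraries. In the GFP3 libraries alone, 2 against 2, limma called 11 of 38 higher with IFNg (28.9%, against 8.27% of all genes).

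**Figure D3:**
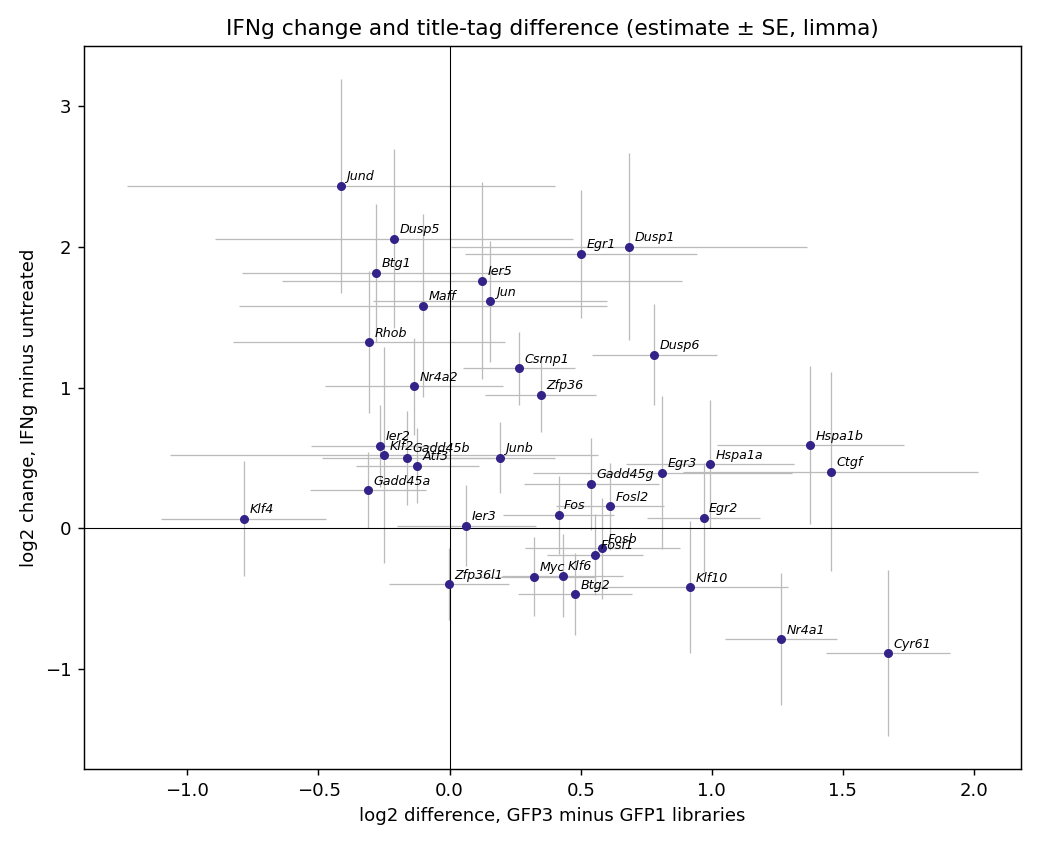
Fitted log2 difference between IFNg and untreated libraries (vertical axis) against that between GFP3 and GFP1 libraries (horizontal axis), 1 point per gene with bars of 1 SE, for the 38 genes. Jund, Dusp5, Dusp1 and Egr1 lie highest, at 2.43, 2.06, 2.00 and 1.95, and Cyr61 lies farthest right, at 1.67.

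A single library, IFNg replicate 10, was the highest of the 6 for 17 of 38 genes (44.7%, against 17.9% of all tested genes). Untreated replicate 1 was the highest for 6 genes (26.7% of all), untreated replicate 9 for 6 (12.9%), IFNg replicate 2 for 5 (8.41%), IFNg replicate 6 for 3 (20.7%) and untreated replicate 5 for 1 (13.4%). The lowest values were most often in untreated replicate 1, for 12 genes (15.1% of all), and in untreated replicate 5, for 9 (16.6% of all). Untreated replicate 9 and IFNg replicate 6 were the lowest for 7 genes each (16.3% and 22.0% of all), IFNg replicate 10 for 2 (20.5%) and IFNg replicate 2 for 1 (9.46%). IFNg replicate 10 also had the largest share of reads outside genes, 14.2%, against 9.67% in IFNg replicate 6, which had the smallest, and the part of this in the values was not tested.

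**Figure D4:**
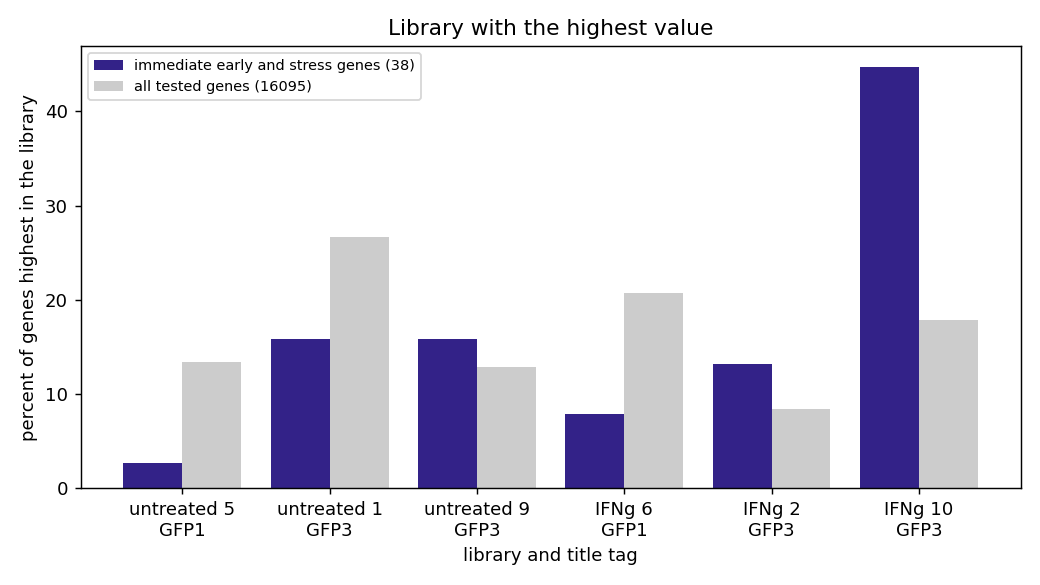
Percent of genes whose highest value was in each library, for the 38 genes and for all 16095 tested genes, with bars starting at 0. IFNg replicate 10 holds 44.7% of the 38 genes and 17.9% of all genes.

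For the tag, limma called 3 genes of the list, a share not far from that of all tested genes. With group as a second term, limma called Cyr61, Nr4a1 and Egr2 higher in the 4 GFP3 libraries than in the 2 GFP1 libraries, 3 of 38 (7.89%, against 5.47% of all genes), and 0 lower (2.28% of all). edgeR and DESeq2 also called 0 lower (1.27% and 7.17% of all genes). Klf4 alone had an unadjusted limma p below 0.05 in that direction, 1 of 38 (2.63%, against 12.4% of all genes). Cyr61 averaged 27390.3 scaled counts in GFP3 and 9083 in GFP1 libraries, with a log2 difference of 1.67 ± 0.24 and an adjusted p of 0.0176. Nr4a1 averaged 5996 and 2413, with 1.26 ± 0.21 and an adjusted p of 0.0247. Egr2, a zinc finger factor with CArG boxes in the windows above, had 3773, 8169.5 and 8296 scaled counts untreated and 4593, 6839.7 and 9521 with IFNg, with a tag difference of 0.97 ± 0.21 and an adjusted p of 0.0393. The adjusted p of Cyr61 was 0.0589 without untreated replicate 1 and 0.0601 without IFNg replicate 6, and it stayed below 0.05 without each of the others in turn. That of Nr4a1 was 0.0681 without untreated replicate 1, 0.0948 without untreated replicate 5, 0.0512 without IFNg replicate 6, 0.0537 without IFNg replicate 2 and 0.0624 without IFNg replicate 10. That of Egr2 was 0.0551 in edgeR and between 0.0567 and 0.166 without each of the 6 libraries in turn. Hspa1b had a tag difference of 1.38 ± 0.36 with an adjusted p of 0.0542. DESeq2 called 7 of 38 higher in GFP3 libraries (18.4%, against 10.7% of all genes): Fosl1, Egr2, Nr4a1, Dusp6, Cyr61, Hspa1a and Hspa1b. edgeR called 2 of them, Nr4a1 and Cyr61 (3.42% of all genes). Some markers of cell types moved with the tag as well. By limma, 2 of 6 Paneth cell markers were higher in GFP3 libraries, Itln1 by 2.61 ± 0.35 and Lyz1 by 2.16 ± 0.45 on the log2 scale (adjusted p = 0.0166 and 0.0346). Also higher were Fcgbp, 1 of 6 goblet cell markers, by 2.66 ± 0.48, Chga and Chgb, 2 of 6 enteroendocrine markers, by 1.95 ± 0.33 and 1.56 ± 0.27, and Col1a2, 1 of 3 tested stromal markers, by 4.37 ± 0.89. Within the goblet, enteroendocrine and stem cell lists the markers went both ways, with median tag differences of -0.17, 0.48 and 0.04. Farthest below 0 in each were Tff3 (-1.23 ± 0.76), Cck (-1.88 ± 1.08) and Ascl2 (-1.22 ± 0.33). Their limma adjusted p were 0.332, 0.302 and 0.0613. Of 6 stem cell markers, Lgr5 was higher, by 1.14 ± 0.24 (adjusted p = 0.0346), and of the tuft, enterocyte and leukocyte markers limma and edgeR called 0 in either direction. An unadjusted limma p was below 0.05 for 1, 4 and 1 of these, and DESeq2 called 1, 2 and 1. The mitochondrial shares given above were lower in the GFP3 libraries. The part of these markers and shares in the tag differences was not tested.

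The other genes of these pathways were followed in 5 further lists. For comparison, at an unadjusted limma p below 0.05, 8.46% of all tested genes were higher with IFNg and 0.758% lower. DESeq2 called 2.84% of all genes higher and 0.0497% lower, and the median log2 difference of all genes was -0.08. Of 26 tested upstream kinases and resident factors (EGF receptor family, MAP kinases, Srf, Creb1 and others), 0 passed limma or edgeR for IFNg, 8 had an unadjusted p below 0.05 and 0 passed DESeq2, with a median log2 difference of 0.35. The widest differences were those of Map2k2, a kinase that activates ERK, at 1.63 ± 0.47 (adjusted p = 0.306), and Rps6ka1, a kinase downstream of ERK, at 1.56 ± 0.50 (adjusted p = 0.336). Of 15 tested ERK feedback genes, 0 passed limma or edgeR, 4 had an unadjusted p below 0.05 and 1, Errfi1, passed DESeq2, with a median of -0.13. The widest were Dusp4 at 1.29 ± 0.49 and Phlda1 at 1.16 ± 0.34. Of 18 chaperones and other heat shock genes, 0 passed limma or edgeR, 1 had an unadjusted p below 0.05 and 1, Hspa4, passed DESeq2, with a median of -0.04.

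Of 16 tested bZIP partners of the AP-1 factors, 1 rose by limma (0.416% of all genes): Batf2, an AP-1 factor known as an interferon target. It had 44.2, 75.7 and 50.5 scaled counts untreated and 3515, 4461 and 2908 with IFNg, 63.9-fold, with a log2 difference of 5.99 ± 0.32 and an adjusted p of 6.59e-05. Its groups were far apart, in the GFP1 pair as in the others. Of 34 other immediate early and dissociation genes, 2 rose and 0 fell by limma (0.416% and 0.0124% of all genes). Their median was 0.74. DESeq2 called 0 lower and 9 higher (2.84% of all genes): Cebpd, Tiparp, Sik1, Nfkbia, Nfkbiz, Irf1, Socs3, Klf5 and Errfi1. By limma the 2 were Irf1, whose values checked the labels above, and Socs3, a feedback inhibitor of cytokine signalling. Irf1 rose 33.6-fold (log2 difference 5.07 ± 0.23, adjusted p = 2.33e-05). Socs3 had 1829.8, 1178 and 731 scaled counts untreated and 13212, 18505 and 14049.6 with IFNg, 12.2-fold, with a log2 difference of 3.70 ± 0.35 and an adjusted p of 0.0014. Cebpd, a bZIP factor, had 83.2, 8.60 and 14.4 scaled counts untreated and 321, 328 and 1288 with IFNg, with an adjusted p of 0.0874.

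**Figure D5:**
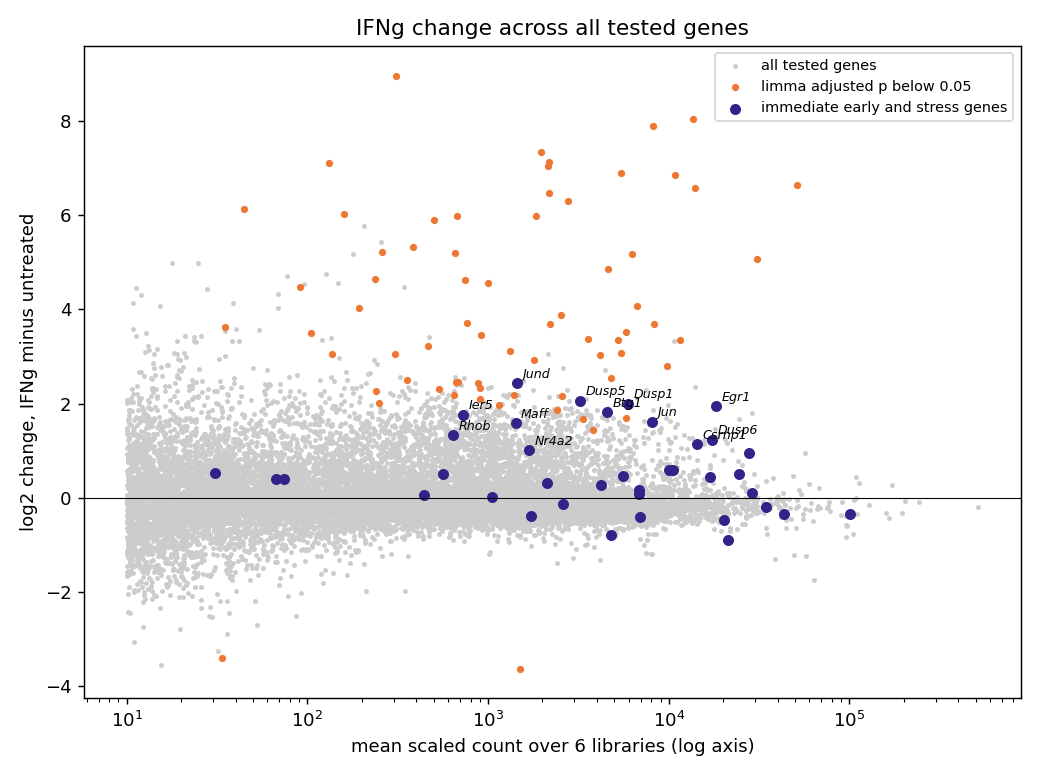
Fitted log2 difference between IFNg and untreated libraries (vertical axis) against the mean scaled count over 6 libraries (log axis), 1 point per tested gene, with the 38 genes, the genes past the limma threshold and all 16095 tested genes in separate colours. None of the 38 genes is among those past the threshold, and their differences run from -0.89 to 2.43.

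The 7 genes annotated with a single exon (Jun, Jund, Ier2, Ier5, Rhob, Hspa1a and Hspa1b) had a median log2 difference of 1.32, with a range of 0.46 to 2.43, and the 31 others had a median of 0.32. Genes of the list were richer in GC, with a median of 54.2% of the bases of the longest annotated transcript against 49.3% over the tested genes. After the values were centred within 20 bins of GC content, the median log2 difference of the 38 genes was 0.37, 28 lay above 0, and limma called 0 higher (0.441% of all genes) and 0 lower (0.00621% of all). The log2 difference moved from 0.50 to 0.18 for Junb, from 0.59 to 0.26 for Ier2, from 0.52 to 0.19 for Klf2 and from 0.32 to -0.0090 for Gadd45g. Jund, the richest of the list in GC, moved from 2.43 to 2.11. The part of exon number in the IFNg values was not tested.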

How the data were processed

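RNA from 6 libraries of sorted Lgr5-GFP high cells was amplified with SMART-Seq v4 (12 cycles from 2 ng of RNA) and made into libraries with KAPA Hyper (8 cycles from 10 ng of cDNA), per the labels' protocols. The submitters' processing notes name mm10 and the tools STAR 2.5.0a, DESeq 1.22.1, cutadapt 1.6 and HTSeq 0.5.3. The table deposited by the authors holds a normalized signal per gene, read counts divided by a size factor for each library. All 138762 values came out as whole reads (100% within 0.01 read) once each library's step, 0.853 to 1.05 scaled counts, was known, and those recovered counts gave the totals and the count tests. The 4 rows that name no gene stayed out of totals and tests: 9.67% to 14.2% of reads had no feature, 18.5% to 25.0% did not align uniquely, 8.83% to 15.4% did not align and 0.948% to 1.20% were ambiguous. How strand was treated in the counting is not given in the sources used here.

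Genes were tested mainly with limma 3.58.1 (trend, robust) in R 4.3.3 on log2(scaled count + 1), on genes averaging 10 scaled counts or more, with Benjamini-Hochberg adjustment over all 16095 genes and a threshold of 0.05. A fold change is a ratio of group means of scaled counts, while log2 differences are on the log2(scaled count + 1) scale. The pseudocount of 1 understates the change of low genes. Alternatives were edgeR 4.0.16 and DESeq2 1.42.0 on the recovered counts, TMM scaling, pseudocounts of 0.5 and 10, a minimum mean of 50 and none, tag and replicate blocks, the GFP3 libraries only and each library left out in turn. GC centring, DESeq2 with a library left out or with the replicate block, and the alternatives of the interaction were chosen after seeing the data. The tag was tested with group as a second term, and the interaction in a fit of group, tag and their product. Scripts were tested on simulated data.

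The titles give no shared replicate numbers. Consecutive numbers were checked as pairs, and deviations from group means correlated within 5 and 6 (0.302), 1 and 2 (0.404), and 9 and 10 (0.252), while every other combination was below 0. Deviations sum to 0 within each group, so a positive value for 1 combination pushes others below 0. The signs of those others therefore add no support. The pairing is thus taken from the data and not from the labels. Libraries of the same group differed far beyond sampling noise, with a chi-square of 76.4 to 377 per degree of freedom. Members and lists were chosen with earlier results of these data known. Genes were given values in every library if they passed in the limma, blocked, tag-blocked, edgeR or DESeq2 fits, were among the 8 with the largest log2 differences, the 6 with the widest range or the 6 with the highest mean, 15 in all. Coordinates and exons are from GENCODE vM21 on GRCm38, which is mm10, and upstream windows from RefSeq on GRCm38.p6. A window held 250 bases before and 50 after the start. One searched motif is not reported here.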

Additional observations from a re-analysis of the deposited data

How the results depend on the processing

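Of the 255 values of the 15 chosen genes under alternative settings for IFNg, 234 kept their direction and side of the threshold, 18 came to pass it, and 3 changed sign: Fos, 0.10 on the log2 scale, was -0.025 in the GFP3 libraries only, -0.10 without untreated replicate 5 and -0.026 without IFNg replicate 10, in a range of -0.10 to 0.27 over the left-out libraries. Of 42 such values for the tag, 14 no longer passed and 28 were as before. The cause of these changes was not tested. For IFNg, 0 genes of the list were higher by limma, 8 by DESeq2, 11 in the GFP3 libraries only and 0 to 1 with a library left out. Over all genes, the 67 higher became 457 by DESeq2, 108 with a tag block, 1331 in the GFP3 libraries only and 40 to 366 with a library left out. The 2 lower became 1 with a pseudocount of 0.5, a minimum mean of 50, the replicate block or GC centring, 8 by DESeq2, 12 in the GFP3 libraries only and 1 to 3 with a library left out. By DESeq2, the 8 genes of the list ran from 1 to 13 with a library left out, the 457 genes higher from 128 to 1378 and the 8 lower from 4 to 22. With the pairing as a replicate block, DESeq2 called 8 genes of the list higher and 1 lower, and 707 and 43 of all genes, whereas limma called 0 of the list with the block. For the tag, the 3 genes of the list became 7 by DESeq2 and 0 to 5 with a library left out. The 881 genes higher became 550 by edgeR, 1726 by DESeq2 and 48 to 800 with a library left out, and the 367 lower became 205, 1154 and 1 to 568. For the interaction, the 0 genes became 9 of the list, 656 higher and 25 lower over all genes by DESeq2. Filters and left-out libraries were not run for the interaction. At these depths counting error is small beside the spread between libraries, and Dusp2 was within reach of the limit that a count of 0 allows.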
